A study of Oryza sativa with 4 samples.

Results

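The CBL and CIPK genes of rice encode calcium sensors and the protein kinases that these sensors control. All genes were taken whose symbol or synonym in the rice RefSeq table is CBL or CIPK followed by a number, with or without the prefix Os, and that had a probe set on the array. The names gave 39 genes, of which 31 had a probe set, 24 CIPK and 7 CBL genes, among 17905 genes measured in all. CBL1, CBL7, CIPK3, CIPK9, CIPK13, CIPK15, CIPK27 and CIPK33 had none in the annotation used and were not analysed here. Where a gene carried several family names, the name with the Os prefix or the name that no other gene carries was used, so LOC4332665 is called CIPK31, LOC4338445 CIPK18 and LOC4325962 CBL5.

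CBL proteins bind calcium through EF hands and then dock onto the NAF motif of a CIPK kinase, which relieves the kinase of its own inhibition and often brings it to a membrane. The kinase then phosphorylates targets such as potassium, sodium and nitrate transporters. In rice, CIPK15 links low oxygen to the sugar starvation kinase SnRK1A and to alpha-amylase production when seeds germinate under water. Variation in the CBL10 promoter has been linked to flooding tolerance at the same stage.

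The arrays hold RNA of shoots from seedlings aged 18 days at the time they were put wholly under water in a greenhouse. The genotypes were M202(Sub1), a line that carries the Sub1 submergence tolerance locus in the M202 background, and M202 itself, a japonica cultivar. Shoots were taken after 6 days or 1 day, which gave 4 groups, M202(Sub1) at 6 days, M202(Sub1) at 1 day, M202 at 6 days and M202 at 1 day, with 1 Affymetrix array each. All plants were submerged, and the labels do not state how many plants went into an array or which donor segments beside Sub1 the line carries.

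Values are RMA signals on the log2 scale, so a difference of 1 is 2-fold. No group was replicated, so differences between single arrays have no test and were counted at 2-fold. A limma model with genotype and time as additive terms was fitted to all 15426 genes with a value of at least 5.51, the median of all values, on some array. Genes with a Benjamini-Hochberg adjusted p under 0.05 in that model are said to have risen or fallen. The model has 1 residual degree of freedom, which is the genotype by time interaction. The variance of each gene was also drawn toward that of tested genes of similar level. The p-values thus carry no spread between plants. Of the 31 genes, 28 reached that floor. CBL5, CIPK20 and CIPK30 lay under it on all 4 arrays and were not tested, and none of these 3 was 2-fold apart in any comparison. The array medians lay between 5.48 and 5.54. Of 7 markers of green tissue 6 stood between 11.34 and 14.32 on all arrays, and RBCS1 was under the floor. Of 11 root marker genes 4 to 6 were under the floor on each array, Lsi2 among them on every array. The highest of that list were PHT1;1, between 10.14 and 11.23, PHT1;8, which reached 9.23, and Lsi1, between 7.33 and 8.13.

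The first question was how the family differed between 6 days and 1 day of submergence. Of the 28 tested genes 16 had an unadjusted p under 0.05 for time, as did 38.4% of all tested genes. After adjustment 7 of the 28 tested genes rose and 2 fell, against 9.54% of all tested genes that rose and 9.05% that fell. The genes that rose were the sensors CBL3 and CBL10 and the kinases CIPK14, CIPK17, CIPK24, CIPK29 and CIPK32. Those that fell were CIPK7 and CIPK12. The model passes a gene only where its time differences in the genotypes are close for their size, so the shared direction of these 9 follows from the test. Without the trend of variance on level in the model, 4 genes rose and 1 fell, and calls over all 15426 tested genes dropped to 1428, against 2868 with it. CBL3 (adjusted p = 0.0538), CIPK7 (0.0507), CIPK29 (0.0673) and CIPK32 (0.0532) no longer passed. The plants at 6 days were also older, and the length of submergence cannot be told apart from age, hour of harvest or other differences between harvests. In shoots, fewer cells of a type and less RNA per cell cannot be told apart either.

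**Figure D1:**
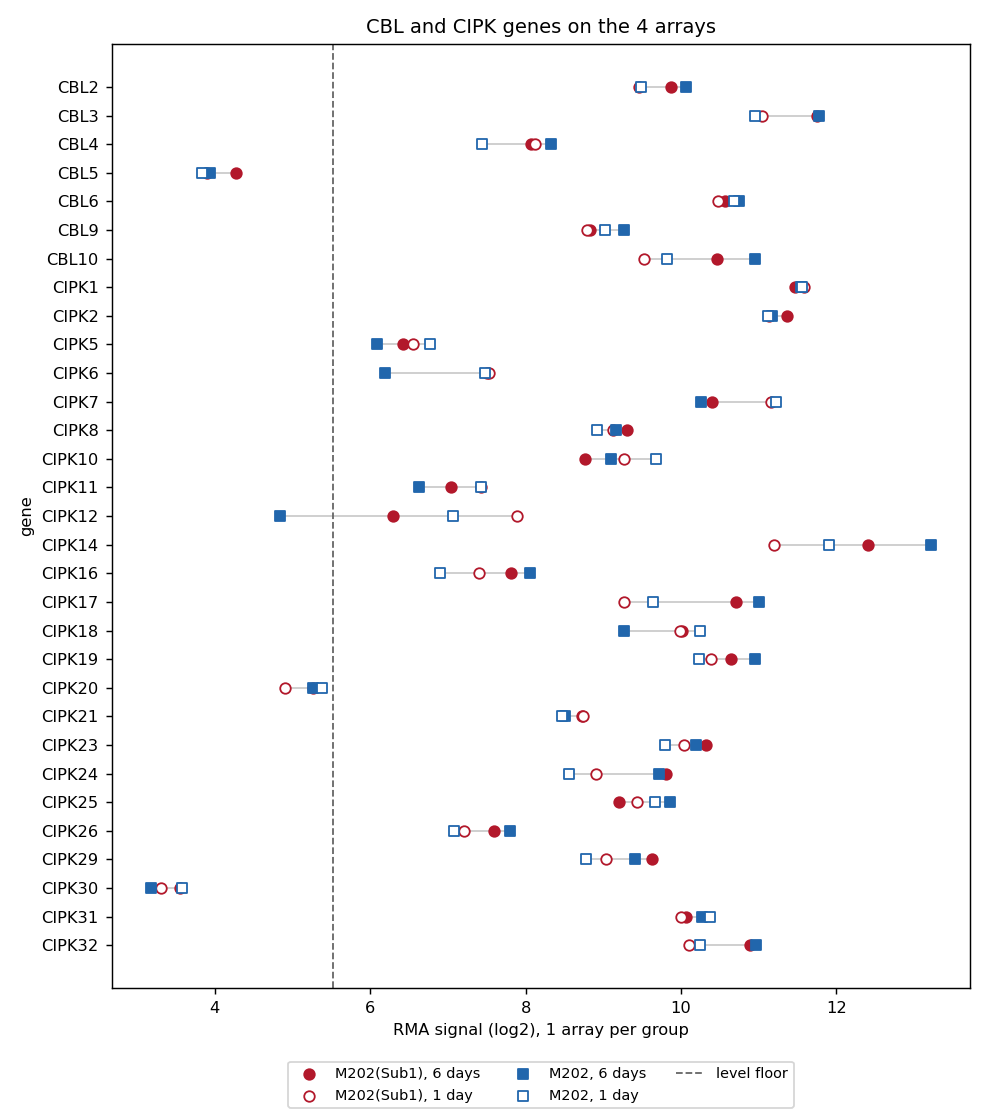
RMA signal (log2, horizontal axis) of the 31 genes (rows) on each of the 4 arrays, with circles for M202(Sub1), squares for M202, filled symbols for 6 days and open symbols for 1 day. The grey line joins the lowest and highest array of a gene and the dashed line is the level floor of 5.51; signals of different genes come from different probes and are not to be compared.

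Among the sensors, CBL10 stood at 10.46 at 6 days and 9.52 at 1 day in M202(Sub1), and at 10.95 and 9.82 at the same times in M202. CBL10 thus had its higher values on both 6-day arrays. The difference was 0.94 in M202(Sub1) and 1.13 in M202, and CBL10 rose by 1.04 over both (SE 0.113, adjusted p = 0.0208, limma). CBL3 was at 11.75 at 6 days and 11.04 at 1 day in M202(Sub1), and at 11.77 and 10.96 in M202. CBL3, whose Arabidopsis counterpart sits at the tonoplast, rose by 0.76 (adjusted p = 0.0248, limma), and its values at a given time were nearly the same in the genotypes.

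CBL2, the close relative of CBL3, was at 9.87 at 6 days and 9.46 at 1 day in M202(Sub1), and at 10.07 and 9.48 in M202. Both 6-day arrays were again the higher ones, but CBL2 did not pass the test (effect 0.50, adjusted p = 0.0645, limma). CBL4, the sensor of the salt tolerance pathway in which it activates CIPK24, was at 8.07 at 6 days and 8.12 at 1 day in M202(Sub1), and at 8.32 and 7.44 in M202. The M202 array at 1 day was the low one, and the other 3 arrays lay within 0.25 of each other.

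CBL6 differed little among arrays, at 10.57 at 6 days and 10.48 at 1 day in M202(Sub1), and at 10.75 and 10.68 in M202. CBL9 was at 8.83 and 8.79 in M202(Sub1), and at 9.27 and 9.03 in M202, at 6 days and 1 day in each case. The name of the CBL9 probe set marks possible cross-hybridisation. CBL5 was near background, at 4.27 and 3.90 in M202(Sub1) and 3.93 and 3.83 in M202. All 7 CBL genes were above 0 in the M202 time difference, as were 8656 of 17905 measured genes. The CBL median was 0.59, against -0.02 over all measured genes. In M202(Sub1) 6 of the 7 were above 0, as were 9004 of 17905 measured genes, and CBL4 was at -0.05. The CBL median there was 0.37, against 0.00 over all measured genes. Both counts include CBL5.

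CIPK17 had the largest time effect of the kinases that rose. It stood at 10.71 at 6 days and 9.26 at 1 day in M202(Sub1), and at 11.01 and 9.63 in M202. The differences of 1.45 in M202(Sub1) and 1.38 in M202 correspond to 2.73-fold and 2.60-fold, and CIPK17 rose by 1.41 over both (SE 0.104, adjusted p = 0.0146, limma). CIPK14, which with CIPK15 takes part in defence responses of rice cells to elicitors, was at 12.41 at 6 days and 11.20 at 1 day in M202(Sub1), and at 13.22 and 11.90 in M202. CIPK14 rose by 1.26 (SE 0.0903, adjusted p = 0.0145, limma). CIPK14 and CIPK15 have nearly identical coding sequences, and the sequences of the probes were not used here, so signal of CIPK15 in this probe set cannot be told apart from that of CIPK14.

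CIPK24, the rice counterpart of the Arabidopsis kinase SOS2 that activates a plasma membrane sodium exporter, was at 9.81 at 6 days and 8.90 at 1 day in M202(Sub1), and at 9.71 and 8.55 in M202. It rose by 1.04 (SE 0.134, adjusted p = 0.0258, limma), with 1.88-fold in M202(Sub1) and 2.24-fold in M202. Its known partner CBL4 did not pass the test (effect 0.42, adjusted p = 0.339, limma). CIPK32 was at 10.89 at 6 days and 10.10 at 1 day in M202(Sub1), and at 10.96 and 10.24 in M202, and rose by 0.75 (adjusted p = 0.0262, limma). CIPK29 was at 9.63 and 9.04 in M202(Sub1), and at 9.40 and 8.78 in M202, and rose by 0.61 (adjusted p = 0.0461, limma). With the genes under the floor included, CIPK29 no longer passed (adjusted p = 0.0539).

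Of the kinases that fell, CIPK12 moved most. CIPK12, whose overexpression has been reported to raise drought tolerance in rice, was at 6.30 at 6 days and 7.89 at 1 day in M202(Sub1), and at 4.84 and 7.07 in M202. Both 6-day arrays lay below both 1-day arrays, and the M202 array at 6 days was under the floor, so the size of that difference is uncertain. The signal at 6 days was 0.331 times that at 1 day in M202(Sub1) and 0.214 times in M202, and CIPK12 fell by 1.91 on the log2 scale (SE 0.247, adjusted p = 0.0258, limma). CIPK7, a kinase tied to cold responses in rice, was at 10.40 at 6 days and 11.16 at 1 day in M202(Sub1), and at 10.25 and 11.22 in M202. CIPK7 fell by 0.87 (SE 0.109, adjusted p = 0.0250, limma), and in this probe set the genotypes differed by 0.14 at 6 days and -0.06 at 1 day, M202(Sub1) minus M202. A second CIPK7 probe set gave genotype differences of -0.77 and -0.36.

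**Figure D2:**
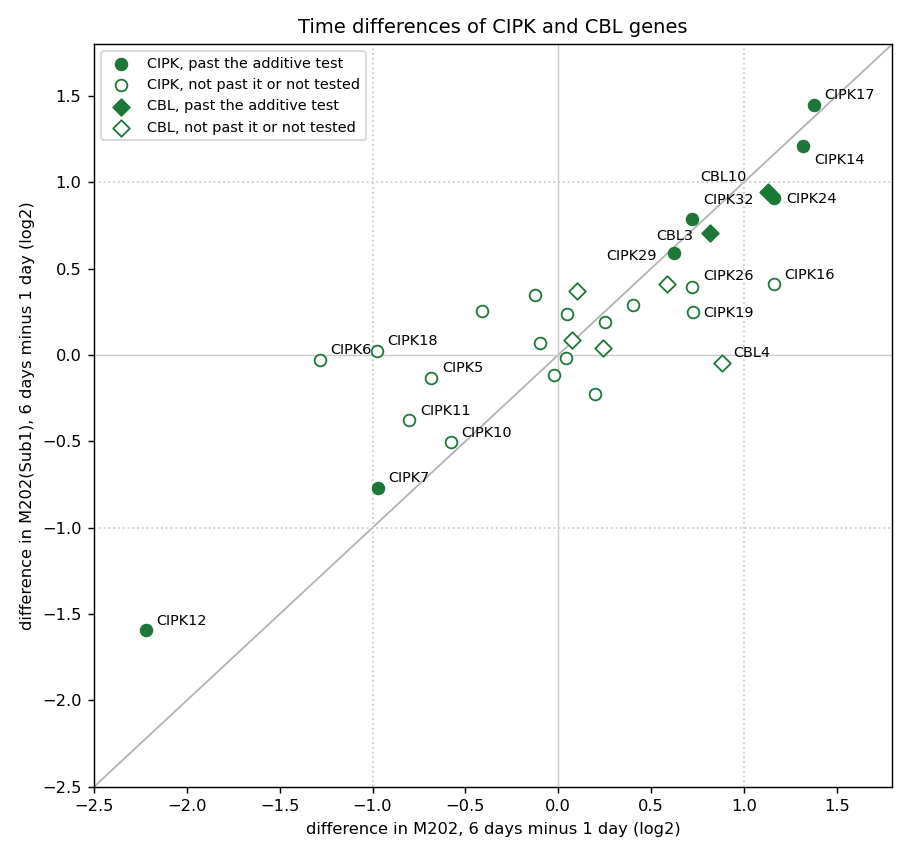
Difference between 6 days and 1 day (log2) in M202(Sub1) on the vertical axis and in M202 on the horizontal axis, with circles for the 24 CIPK and diamonds for the 7 CBL genes and filled symbols for genes past the additive limma test. The 9 filled symbols run from CIPK12 at -1.59 in M202(Sub1) and -2.22 in M202 to CIPK17 at 1.45 and 1.38, while CIPK6, CIPK18 and CBL4 lie near 0 in M202(Sub1) only.

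At 2-fold, 2 genes were higher and 1 was lower at 6 days in M202(Sub1), where 6.25% of all genes above the floor were higher and 4.61% lower. In M202, 5 were higher and 2 were lower, against 7.44% and 8.62% of all genes. CIPK14 and CIPK17 were higher and CIPK12 lower by 2-fold in both genotypes. CBL10, CIPK16 and CIPK24 were 2-fold higher in M202 alone by this count, and CIPK6 was 2-fold lower. Whether the time differences of the genotypes differ cannot be tested with 1 array per group.

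Directions were shared between the genotypes about as often as over the whole array. Of the 31 genes 17 were higher at 6 days in both genotypes, 7 were lower in both and 7 had opposite signs, which gives the same sign for 77.4% of them, against 76.3% of all measured genes. The median time difference of the 31 genes was 0.24 in M202(Sub1) and 0.20 in M202, against 0.00 and -0.02 over all measured genes. In M202(Sub1) 67.7% of the 31 genes lay within 0.5 of no difference, and in M202 38.7% did, against 72.9% and 63.2% of all measured genes.

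CIPK6, CIPK18 and CBL4 differed most between the genotypes in their time differences. CIPK6 was at 7.50 at 6 days and 7.53 at 1 day in M202(Sub1), and at 6.19 and 7.48 in M202, so the M202 array at 6 days was the only low one. The difference between the time differences, that of M202(Sub1) minus that of M202, was 1.26. CIPK18 was at 10.02 and 9.99 in M202(Sub1), and at 9.26 and 10.24 in M202, which gives 1.00. CBL4 had the opposite pattern (-0.93), since its odd array was M202 at 1 day. At 2-fold, 2 genes had a more positive time difference in M202(Sub1) and none had a more negative one, against 4.2% and 1.59% of all genes above the floor. These values rest on 4 single arrays and were not tested.

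CIPK16 was at 7.81 at 6 days and 7.40 at 1 day in M202(Sub1), and at 8.06 and 6.90 in M202, a difference of 0.41 in M202(Sub1) and 1.16 in M202. It did not pass the additive test (adjusted p = 0.108, limma). Its probe set name marks possible cross-hybridisation, and CIPK27, the next gene on chromosome 9, had no probe set. CIPK12 and CIPK30 are likewise direct neighbours on chromosome 1, yet CIPK30 lay between 3.17 and 3.58 on all arrays, near background. CIPK29 and CIPK2 adjoin each other on chromosome 7, and CIPK2 was at 11.37 and 11.13 in M202(Sub1), and at 11.17 and 11.12 in M202, at 6 days and 1 day in each case. CIPK2 did not pass the test, unlike its neighbour CIPK29. The name of the CIPK2 probe set used also marks possible cross-hybridisation.

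The second question was how the genotypes differed at each time. At 6 days 2 of the 28 genes above the floor exceeded M202 by 2-fold or more in M202(Sub1) and none was 2-fold lower, against 3.85% and 2.18% of all genes above the floor. At 1 day none was 2-fold apart in either direction, against 0.778% higher and 1.01% lower among all genes. No CIPK or CBL gene passed the additive limma test for genotype, 6 of 28 had an unadjusted p under 0.05, while 0% of all tested genes passed as higher, 0.00648% as lower and 10.8% had an unadjusted p under 0.05. The median genotype difference of the 31 genes was -0.03 at 6 days and -0.01 at 1 day.

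The 2 genes past 2-fold at 6 days were CIPK12 and CIPK6. CIPK12 was higher in M202(Sub1) by 1.45 at 6 days and by 0.82 at 1 day, which is 2.74-fold and 1.77-fold. The M202 value at 6 days was under the floor, so that fold is uncertain, and the mean of both CIPK12 probe sets gave 1.00 at 6 days. CIPK12 had an unadjusted p of 0.0114 and an adjusted p of 0.372 (limma). CIPK6 was higher in M202(Sub1) by 1.31 at 6 days and by 0.05 at 1 day. The 6-day differences share the M202 array at 6 days with the M202 time differences, so the CIPK6 values of both comparisons are not independent.

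CIPK14 had the lowest genotype differences of the 31 genes at both times. It was lower in M202(Sub1) by a log2 difference of -0.82 at 6 days and -0.71 at 1 day, or 0.568 and 0.613 times the M202 signal. Its unadjusted p of 0.00136 was the smallest among the 28 genes for genotype, with an adjusted p of 0.342 (limma). CBL10 was lower in M202(Sub1) as well, by -0.49 at 6 days and -0.30 at 1 day (adjusted p = 0.429, limma), and so were CIPK25 (-0.66 and -0.23), CIPK10 (-0.33 and -0.41) and CBL9 (-0.44 and -0.23). CIPK17 was at -0.30 and -0.37. Of the other genes that rose with time, CIPK32 was lower in M202(Sub1) at both times (-0.07 and -0.13), CIPK24 (0.10 and 0.35) and CIPK29 (0.23 and 0.26) were higher, and CBL3 had opposite signs (-0.03 and 0.08). None of these genotype differences passed the test. Of the 31 genes 9 were higher and 10 lower in M202(Sub1) at both times, a shared sign for 61.3% of them, against 59% of all measured genes.

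**Figure D3:**
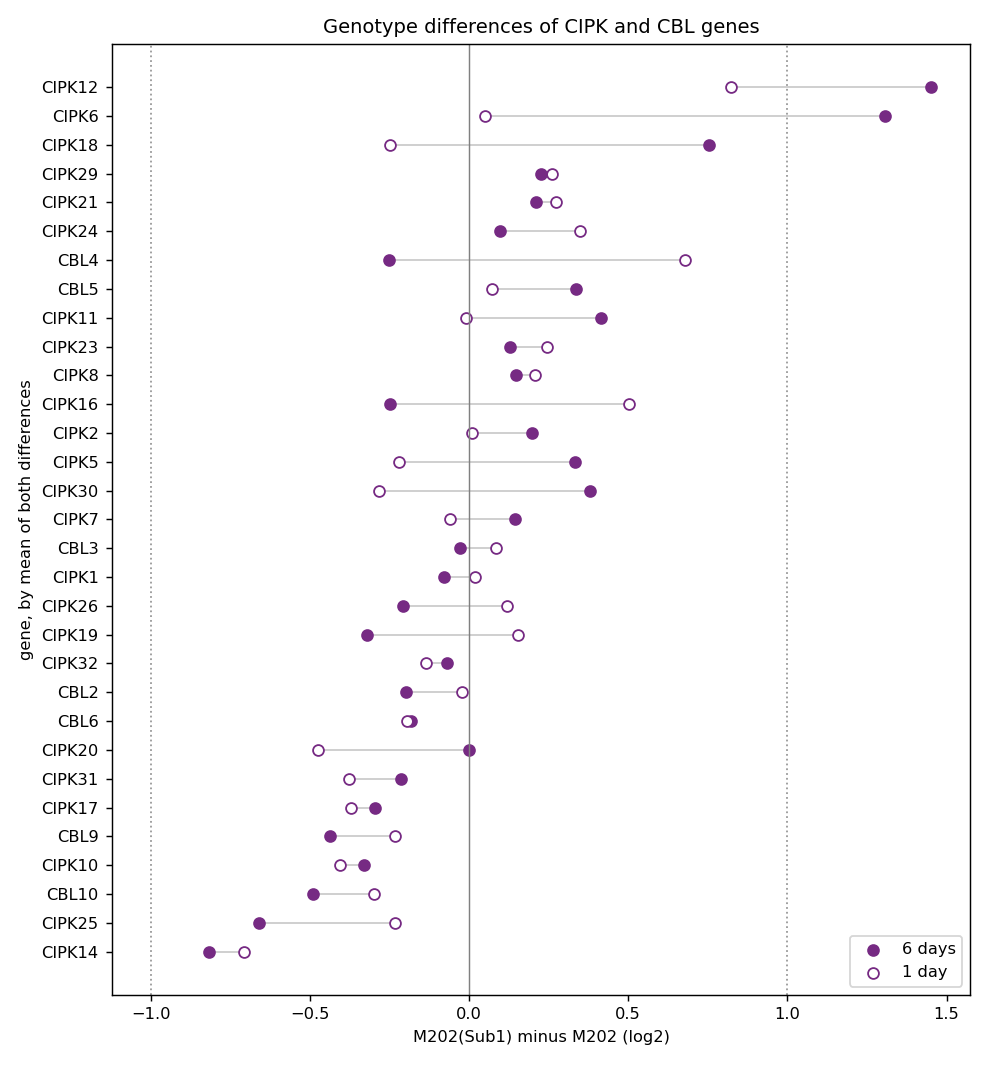
Difference of M202(Sub1) minus M202 (log2, horizontal axis) at 6 days (filled) and at 1 day (open) for the 31 genes (rows), ordered by the mean of both, with dotted lines at 2-fold. CIPK12 and CIPK6 pass the 2-fold line at 6 days, and CIPK14 is at the low end at both times with -0.82 and -0.71.

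With the probe set chosen for each gene and the settings used above, the remaining kinases stayed within 2-fold in all 4 comparisons and passed no test. CIPK23, which with CBL1 activates the potassium channel AKT1 in rice roots, was at 10.32 at 6 days and 10.03 at 1 day in M202(Sub1), and at 10.19 and 9.79 in M202. CIPK31, a stress-responsive kinase also known as OsCK1, differed between 6 days and 1 day by 0.07 in M202(Sub1) and by -0.10 in M202. CIPK1 varied least, between 11.46 and 11.58 on the 4 arrays, and CIPK21 lay between 8.47 and 8.74. Lower values at 6 days were seen on both pairs of arrays for CIPK10 (-0.50 in M202(Sub1) and -0.58 in M202), CIPK11 (-0.38 and -0.80) and CIPK5 (-0.13 and -0.68). Higher values at 6 days were seen on both pairs for CIPK8 (0.19 and 0.25), CIPK19 (0.25 and 0.72) and CIPK26 (0.39 and 0.72). CIPK25 had opposite signs (-0.23 and 0.20), and CIPK20 lay between 4.91 and 5.38, under the floor. The CIPK11 probe set carries a name that marks sequence shared with other transcripts.

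8 of the 31 genes had more than 1 probe set. The sets of a gene differ in probes and level, so their span does not measure spread between arrays or plants. All sets of a gene had the same sign for 5 of the 8 genes in the time difference of M202(Sub1) and for 7 of 8 in that of M202. The sets of a gene spanned a median of 0.34 in M202(Sub1) and 0.39 in M202. In the genotype difference the signs were shared for 5 of 8 genes at 6 days and for 6 of 8 at 1 day, with median spans of 0.39 and 0.21. The widest genotype span at 6 days was 0.91, between the CIPK7 sets. CIPK10 had 4 sets, all lower at 6 days, from -0.50 to -1.04 in M202(Sub1) and from -0.52 to -0.94 in M202. The second set of CIPK12 was lower at 6 days too, but by -0.75 in M202(Sub1) and -0.43 in M202, and it was under the floor on 3 arrays. It also gave a higher signal in M202(Sub1) at both times, by 0.55 at 6 days and 0.87 at 1 day, so the direction for CIPK12 held in both sets and the size did not. With the mean of both sets the M202 time difference was -1.33.

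The second set of CIPK7 was lower at 6 days by -0.79 in M202(Sub1) and -0.38 in M202, and that of CIPK32 was higher by 0.89 and 1.19. Both gave the direction of the set chosen by mean level. The second CIPK32 set was above the floor only on the M202 array at 6 days, at 5.92, so its sizes are uncertain. The sets of CIPK23 agreed on time (0.87 and 0.29 in M202(Sub1), 0.76 and 0.40 in M202) but not on genotype, where one lay at 0.13 at 6 days and 0.24 at 1 day and the other at -0.11 and -0.22. CIPK31, CIPK2 and CBL9 had sets of opposite sign in the M202(Sub1) time difference, between -0.31 and 0.24.

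**Figure D4:**
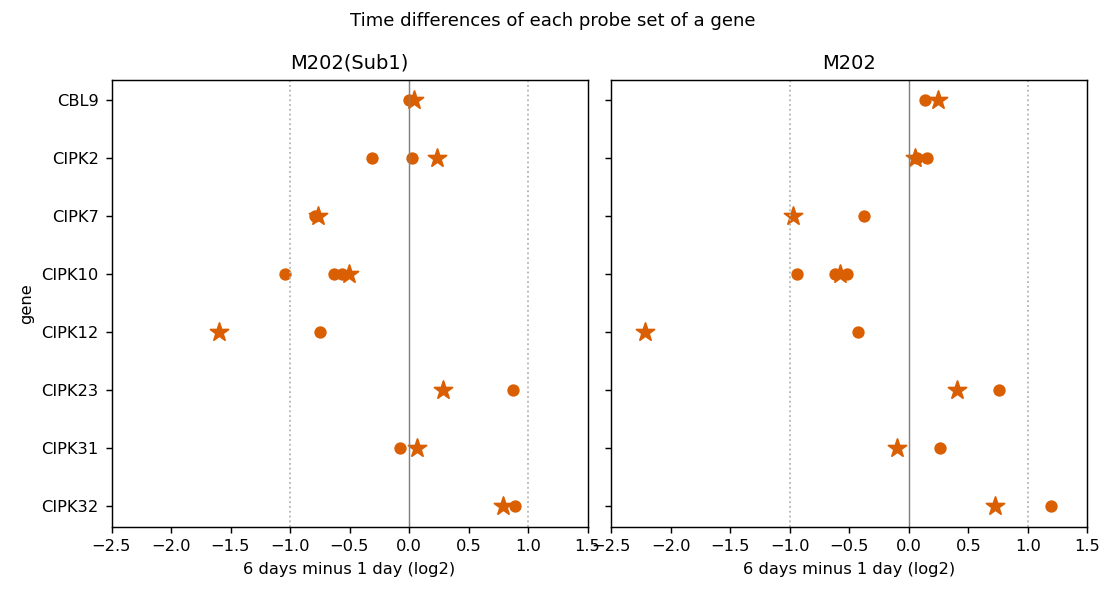
Difference between 6 days and 1 day (log2, horizontal axis) for every probe set of the 8 genes with more than 1, in M202(Sub1) (left) and M202 (right), with a star for the set used for the gene. The sets of CIPK7, CIPK10 and CIPK12 all lie below 0 and those of CIPK23 and CIPK32 all above 0 in both genotypes.

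Genes around the CBL and CIPK proteins were taken from lists of symbols, and each count on these lists stands against 9.54% of all tested genes that rose and 9.05% that fell. Medians are given over all measured genes of a list, against 0.00 in M202(Sub1) and -0.02 in M202 over all measured genes. Of 7 tested genes of the sugar starvation branch 3 rose and none fell, and these were AMY3D, MYBS2 and MYBS3. The median time difference of this list was 0.25 in M202(Sub1) and 0.57 in M202. AMY3D, the starvation-induced alpha-amylase, was higher at 6 days by 2.51 in M202(Sub1) and by 2.29 in M202. Its 1-day values of 4.83 in M202(Sub1) and 5.21 in M202 were under the floor, so AMY3D entered the test through its 6-day values and the size is uncertain. MYBS3, a repressor of this amylase, rose by 0.90 (adjusted p = 0.0214, limma) and MYBS2 by 0.79 (adjusted p = 0.0233, limma), both named after their values were seen. MYBS1 of the same list, likewise named after its values were seen, was lower at 6 days in both genotypes. Its differences were -0.54 in M202(Sub1) and -0.39 in M202, and it did not pass (adjusted p = 0.0687, limma). SnRK1A, the kinase that CIPK15 acts on, also named after its values were seen, was at 10.96 at 6 days and 10.70 at 1 day in M202(Sub1), and at 10.65 and 10.62 in M202.

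Of 26 tested transport genes 2 rose and none fell, and the median difference was -0.01 in M202(Sub1) and 0.07 in M202. The ammonium transporter gene AMT2;3 rose by 2.30 (adjusted p = 0.0240, limma), and it too was under the floor at 1 day, with 4.31 in M202(Sub1) and 5.20 in M202. The potassium transporter gene HAK7, named after its values were seen, rose by 0.64. AMT3;2 was at 8.43 at 6 days in M202(Sub1), against 10.11 in M202, a difference of -1.68, while the 1-day values were 7.62 and 7.94. AMT3;3 (-2.11 in M202(Sub1) and -1.06 in M202) and AMT2;1 (-1.18 and -0.57) had lower values at 6 days but did not pass the test. The 6-day values of AMT3;3, 4.46 in M202(Sub1) and 5.42 in M202, were under the floor. AMT3;3 thus entered the test through its 1-day values, and the size of its differences is uncertain. AKT1, the potassium channel that CIPK23 acts on and named here after its values were seen, was higher in M202(Sub1) by 0.68 at 6 days and 0.57 at 1 day. The list for calcium entry and removal had medians of -0.06 in M202(Sub1) and 0.10 in M202. Of its 10 tested genes 2 fell and none rose, the vacuolar exchanger gene CAX1b by 1.21 (adjusted p = 0.0299, limma) and the channel gene TPC1, named after its values were seen, by 0.75.

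Among 40 tested genes of the other calcium sensors and decoders, the calmodulins, calmodulin-like proteins and calcium-dependent kinases, 10 rose and 2 fell, with medians of 0.14 in M202(Sub1) and 0.13 in M202. The largest differences were in CML31, CML15 and CML16. CML16 was at 11.82 at 6 days and 7.55 at 1 day in M202(Sub1), and at 10.77 and 8.37 in M202, and rose by 3.34 (adjusted p = 0.0305, limma). CML31 differed by 6.54 in M202(Sub1) and 4.29 in M202, and CML15 by 5.93 and 3.57. CML14 rose by 2.60 (adjusted p = 0.0145, limma) and CML18 by 1.55 (adjusted p = 0.0212, limma), while CML20 did not pass (2.18 in M202(Sub1) and 0.91 in M202). The largest CBL time difference was 1.13, that of CBL10 in M202.

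Of 10 SnRK2 kinases, relatives of the CIPKs that act in abscisic acid and osmotic signalling, 1 rose, SAPK1, by 1.14 (adjusted p = 0.0210, limma). That share is close to the one over all tested genes, and the medians were 0.05 in M202(Sub1) and 0.24 in M202. Of 54 tested genes of type 2C protein phosphatases, a group in which some members bind CIPKs, 10 rose and 2 fell, with medians of 0.08 in M202(Sub1) and 0.11 in M202. PP2C68 rose by 3.45 (adjusted p = 0.0217, limma), but its 1-day values of 3.89 in M202(Sub1) and 4.22 in M202 were under the floor, so it entered the test through its 6-day values. PP2C32 rose by 3.04, PP2C34 by 1.88 and PP2C35 by 1.55. PP2C61 rose too, with differences of 2.58 in M202(Sub1) and 1.61 in M202. PP2C30 was higher at 6 days by 4.16 in M202(Sub1) and 1.36 in M202 and did not pass. Its 1-day value in M202(Sub1), 5.32, was under the floor, and that in M202 was 5.60, so these sizes are uncertain. The NADPH oxidase gene rbohB, the single gene of its list, was at 10.18 and 10.17 in M202(Sub1), and at 9.92 and 10.45 in M202, at 6 days and 1 day in each case. SOS1, the sodium exporter downstream of CIPK24, was not analysed here.

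**Figure D5:**
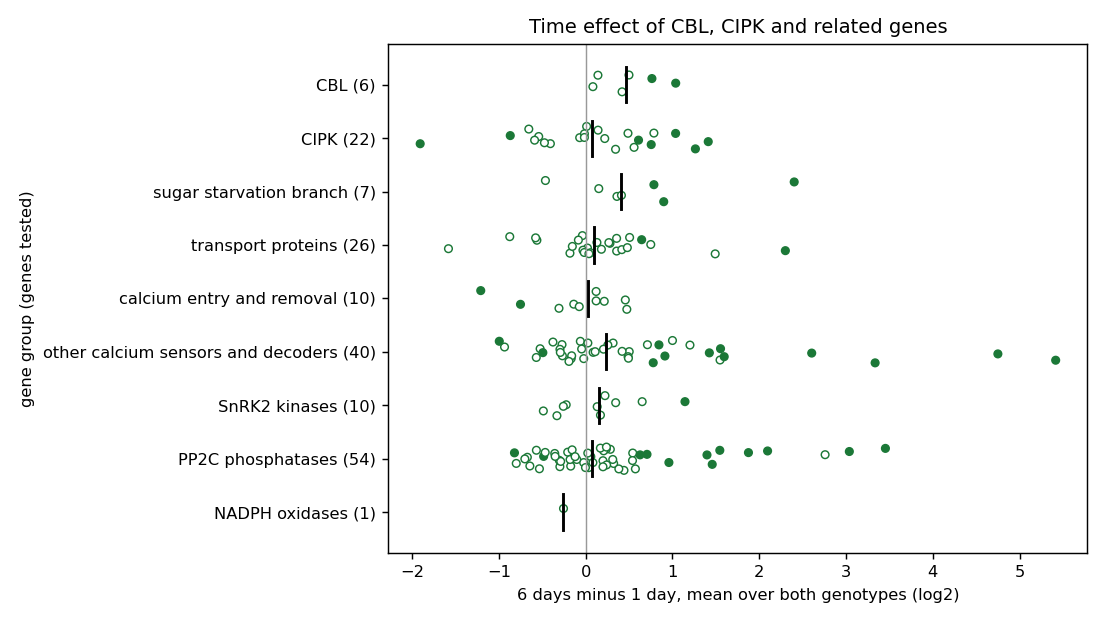
Time effect of the additive limma model (6 days minus 1 day, log2, horizontal axis) for tested CBL and CIPK genes and for 7 lists of related genes (rows, number of tested genes in brackets), with filled points for genes past the test and a black bar at the median. The CBL and CIPK genes span -1.91 to 1.41, and the points beyond 3 belong to calmodulin-like genes and 2C phosphatases.

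Of the 6 tested green tissue markers PSAH and RCABP69 fell with time, by 1.00 and 1.24, and none rose. The other 4 did not pass, with effects of -0.38 for CAB2R, -0.13 for rbcS, 0.11 for rca and 0.16 for PSAG. Of the root markers, the phosphate transporter gene PHT1;1 rose by 1.01 (adjusted p = 0.0198, limma) and PHT1;4 fell by 0.89 (adjusted p = 0.0470, limma), and the other 5 tested did not pass. The 3′ minus 5′ difference of the actin control was 2.52 at 6 days and 2.31 at 1 day in M202(Sub1), and 2.36 and 2.26 in M202. For the GAPDH control it was 0.81 and 0.60 in M202(Sub1), and 0.79 and 0.68 in M202. For cyclophilin it was 0.40 and 0.43 in M202(Sub1), and 0.51 and 0.32 in M202. The part of these shifts in the time differences of the CBL and CIPK genes was not tested.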

How the data were processed

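Shoot RNA from 4 samples was labelled by in vitro transcription and put on 1-colour Affymetrix arrays, per the labels' protocols. The authors deposited 1 log2 value per probe set and array, made with RMA per the submitters' processing notes. The RMA version, and which arrays were normalized in 1 run, are not stated in the labels or notes. RMA brings arrays to 1 distribution and compresses differences near background.

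Of 57258 rice probe sets 22436 carry 1 gene in the platform annotation, 95 carry several and 34727 are unnamed here. They stand for 17905 genes, each found by its gene number in RefSeq (assembly ASM3414082v1), which served for names and neighbours only. A gene was represented by its probe set of highest mean signal. The floor was the 50th percentile of all values. Differences are M202(Sub1) minus M202 and 6 days minus 1 day. Additive models were fitted with limma 3.58.1 in R 4.3.3 (eBayes with trend, Benjamini-Hochberg). Python 3.11.15, numpy 2.4.6 and pandas 2.3.3 were used for the rest, and the calculations were tested on simulated data. The number of arrays limits the precision.

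Full values were given for every CBL gene and for each CIPK gene at least 2-fold apart in any of 4 differences or past the model, and up to 6 genes per list that were 2-fold apart. Members, lists and rules were chosen with earlier results of these data known. CIPK15 was to be given but had no probe set. Planned searches of protein and promoter sequences were not run, since no sequences were used here. Alternatives were no floor or other floors, averaging a gene's probe sets, leaving out probe sets marked for possible cross-hybridisation, quantile normalization, median centring, 1.5-fold, no variance trend and an adjusted p of 0.1.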

Additional observations from a re-analysis of the deposited data

Results flagged for a closer look

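CBL4 and CIPK18 had time differences of opposite sign in the genotypes that were at least 0.5 apart on the log2 scale. Those in M202(Sub1) were close to 0, at -0.05 for CBL4 and 0.03 for CIPK18, so their sign carries little weight. For CBL4 the time difference in M202(Sub1) minus that in M202 was -0.93, and for CIPK18 it was 1.00. The same values are the genotype difference at 6 days minus that at 1 day, which also changed sign for both genes. CIPK5 (0.55) and CIPK16 (-0.75) had genotype differences of opposite sign at 6 days and 1 day. With 1 array per group none of these differences was tested.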

How the results depend on the processing

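With 1 array per group no replicate could be left out, and leaving out 1 array leaves the additive model no residual degree of freedom. No paired analysis was possible because each group has 1 array and so no replicate number to use as a block, beyond the additive model itself, which compares the times within each genotype. The counts of genes moved with the threshold, and where they moved with another setting the cause was not tested. The share of all genes past 1.5-fold was not counted. The counts at 1.5-fold thus cannot be set against the whole array. At 1.5-fold, 2 genes were lower in M202(Sub1) at 6 days, and at 1 day 2 were higher and 1 lower, where 2-fold gave none. For time, 1.5-fold gave 7 higher and 2 lower at 6 days in M202(Sub1), and 12 and 6 in M202. For the difference between time differences it gave 2 lower genes, and quantile normalization gave 1 higher and 1 lower. Median centring gave 1 higher, since CIPK18 came to 0.98. Quantile normalization gave 4 genes lower with time in M202. A floor at the 75th percentile, which kept 22 genes, left 0 higher for genotype at 6 days, 0 lower with time in either genotype and 1 higher for the difference between time differences. CIPK12 and CIPK6 lie under that floor. Without the variance trend 4 genes rose and 1 fell, and CBL3, CIPK7, CIPK29 and CIPK32 no longer passed, with adjusted p-values from 0.0507 to 0.0673. Another 90 recomputed counts lay within 1.5 times the value given. Among them, the mean of all probe sets gave 8 genes that rose and 3 that fell. Quantile normalization gave 7 that rose and 3 that fell, so these settings also added genes past the test. Over the whole array, 2645 of 15221 tested genes passed for time with the mean of all probe sets. With quantile normalization 3535 of 15415 passed, against 2868 of 15426 under the settings used above. None of the differences that were 2-fold or past the test under the settings used above changed sign. Smaller differences named here were not followed across settings. The time difference of CIPK12 in M202 ranged from -2.22 to -1.33.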
